A study of Mus musculus with 2 samples.

Results

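The 10 core circadian clock genes Arntl, Clock, Per1, Per2, Per3, Cry1, Cry2, Nr1d1, Nr1d2 and Dbp were followed through the cell classes of the mouse retina. They were found by their symbols in the gene list of the deposited matrices, where all 10 of 10 were present among 32285 genes. The clearest contrast lay between cell classes. Rods carried the highest levels of Arntl, while Müller glia and rod bipolar cells carried 23.3 to 24.6 times as much Dbp as rods, and cones 8.32 times as much. Between the light conditions most of these genes differed by less than 1.5-fold.

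The clock of mammalian cells is a feedback loop of transcription. BMAL1, the product of Arntl, pairs with CLOCK and switches on genes that carry E-box motifs, among them the Period genes, the Cryptochrome genes, the genes of the REV-ERB receptors and Dbp. PER and CRY proteins return to the nucleus and block BMAL1 and CLOCK, REV-ERB receptors repress Arntl through another motif, and DBP drives genes with D-box motifs. The retina holds a clock of its own, which is known to time dopamine release, photoreceptor coupling and visual sensitivity.

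Retinas came from mice kept in short-wavelength light or in full-spectrum white light from postnatal day 14, for 2 weeks, after which the tissue was dissociated for single-cell RNA sequencing. The labels name neither strain, sex, number of animals nor the time of day of collection. Each light condition had 1 library, so light, library and sampling time cannot be told apart, and each library shows a single point of any daily rhythm. No test between light conditions was possible. Intervals are at the 95% level throughout and reflect counting error alone.

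Unique molecular identifiers (UMIs), each standing for a captured RNA molecule, numbered 51681469 over 16106 short-wavelength barcodes (median 2434) and 20952589 over 5707 white-light barcodes (median 2784). The libraries shared 26 barcode sequences. After filtering and removal of likely doublets, 14023 short-wavelength and 5436 white-light cells were kept.

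Cells were assigned to classes by UMIs of marker genes that are not clock genes. The gates gave 81 Müller glia, 117 rod bipolar cells, 306 cones and 12612 rods under short-wavelength light. They gave 33 Müller glia, 41 rod bipolar cells, 98 cones and 4577 rods under white light. Another 5.90% of short-wavelength and 12.1% of white-light cells passed no gate and were not used. The gates were set on the panels that follow, so their high sums in the named classes follow from the gating. A rod was allowed at most 2 glial panel UMIs, 2 cone markers and 2 bipolar panel UMIs other than Prkca. The low glial and cone sums in rods thus follow from the gating too, as do the bipolar sums apart from Prkca. The glial panel of 9 genes summed to 13573 CPM (UMIs per 1000000 UMIs of the class) in Müller glia and 65.1 in rods under short-wavelength light, and to 12486 in Müller glia and 65.2 in rods under white light. The rod bipolar panel stood at 23667 in rod bipolar cells and 792 in rods under short-wavelength light, and the cone panel at 43072 in cones and 223 in rods. A cone bipolar panel that took no part in the gates was also counted in rod bipolar cells. It stood there at 196 CPM under short-wavelength and 200 CPM under white light. Nearly all of this was Grik1, at 183 CPM under short-wavelength and 191 CPM under white light. Vsx1, Tacr3 and Neto1 of that panel had no UMI there in either library, and Cabp2 had none under white light.

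Rod transcripts were counted in every other class, and their part in the results was not tested. Gnat1, the rod transducin gene, stood in Müller glia at 18.0% of its level in rods under short-wavelength light and 13.2% under white light. In rod bipolar cells it stood at 15.3% in the short-wavelength and 13.0% in the white-light library. In cones it stood at 18.4% in the short-wavelength and 15.8% in the white-light library. The Müller class also carried an endothelial marker panel of 2140.2 CPM under short-wavelength light and 2005 under white light. It was led by Flt1 at 1537 CPM under short-wavelength and 1372 CPM under white light. Of the other genes of that panel, Kdr was counted in the Müller class of both libraries and Pecam1 under white light only. Cldn5 was at 0 in all 4 classes of both libraries, so its absence does not set Müller glia apart. Cells differed in depth too. The median under short-wavelength light was 5906 UMIs in Müller glia, 6236 in rod bipolar cells, 6478 in cones and 2311 in rods. Under white light it was 8013 UMIs in Müller glia, 8291 in rod bipolar cells, 6715 in cones and 2729 in rods.

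The genes lie apart in the mm10 build, per the GENCODE annotation. Arntl (ENSMUSG00000055116) spans chr7:113207465-113314126 on the plus strand and Clock (ENSMUSG00000029238) chr5:76209868-76304792 on the minus strand. Per1 (ENSMUSG00000020893) spans chr11:69095217-69109960 on the plus strand, Per2 (ENSMUSG00000055866) chr1:91415982-91459324 on the minus strand and Per3 (ENSMUSG00000028957) chr4:151003652-151044665 on the minus strand. Cry1 (ENSMUSG00000020038) spans chr10:85131700-85185064 and Cry2 (ENSMUSG00000068742) chr2:92403646-92434043, both on the minus strand. Nr1d1 (ENSMUSG00000020889) spans chr11:98767932-98775333 and Nr1d2 (ENSMUSG00000021775) chr14:18204054-18239127, both on the minus strand. Dbp (ENSMUSG00000059824) spans chr7:45705088-45710203 on the plus strand.

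The letters through which the loop is wired are visible in front of several of these genes. The RefSeq promoter table (build GRCm38.p6) held an entry for 9 of the 10 genes. The 250 bases upstream of each transcript start were searched on both strands for the E-box CACGTG, the weaker E-prime box CACGTT, which reads as AACGTG from the other strand, and the D-box TTATGNAA. Of the 9 genes, 5 had at least 1 match. Over all 32851 upstream windows of the table, 6.02% held the E-box, 3.85% the E-prime box and 3.07% the D-box. The 4 windows below are shown because they hold each kind of motif, in capitals, and belong to a member of each repressor arm. Per1 has its E-box 166 bases and its D-box 24 bases before the start. Per3 has D-boxes 205 and 158 bases before the start. Cry1 has an E-prime box 79 bases and an E-box 60 bases before the start, and Nr1d1 an E-prime box 28 bases before it. No motif overlapped another.
Per1, chr11:69098699-69098948, plus strand: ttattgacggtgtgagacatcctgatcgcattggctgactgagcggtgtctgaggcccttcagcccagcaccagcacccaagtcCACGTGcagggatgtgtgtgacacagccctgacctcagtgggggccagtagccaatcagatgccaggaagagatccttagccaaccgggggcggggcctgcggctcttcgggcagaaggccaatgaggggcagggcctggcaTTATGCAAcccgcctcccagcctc
Per3, chr4:151044666-151044915, minus strand: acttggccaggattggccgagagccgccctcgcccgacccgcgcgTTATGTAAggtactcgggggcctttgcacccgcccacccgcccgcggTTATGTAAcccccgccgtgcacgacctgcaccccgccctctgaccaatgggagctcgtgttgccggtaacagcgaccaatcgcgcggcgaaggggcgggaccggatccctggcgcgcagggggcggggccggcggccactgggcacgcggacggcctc
Cry1, chr10:85185055-85185304, minus strand: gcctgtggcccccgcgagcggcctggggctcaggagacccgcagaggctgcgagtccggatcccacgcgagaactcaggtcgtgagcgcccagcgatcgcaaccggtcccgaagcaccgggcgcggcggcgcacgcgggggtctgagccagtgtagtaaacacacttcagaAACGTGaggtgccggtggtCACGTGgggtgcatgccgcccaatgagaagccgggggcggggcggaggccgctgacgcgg
Nr1d1, chr11:98775378-98775627, minus strand: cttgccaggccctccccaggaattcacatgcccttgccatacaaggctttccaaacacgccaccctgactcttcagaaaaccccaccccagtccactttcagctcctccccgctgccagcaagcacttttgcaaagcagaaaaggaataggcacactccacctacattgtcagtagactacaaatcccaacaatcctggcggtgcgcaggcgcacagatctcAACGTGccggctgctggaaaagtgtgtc
Arntl has a match to GTAGGTCA, a core bound by REV-ERB and ROR receptors, downstream of a start site, its first base at position 30 counted from that start. The 30 bases around it, in which capitals mark the match, are shown because they lie in the gene that the REV-ERB arm acts on. The motif occurs in 0.621% of all 300-base windows of the table.
Arntl, chr7:113207529-113207558, plus strand: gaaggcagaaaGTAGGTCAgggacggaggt
The upstream windows of Cry2 held an E-prime box 166 bases before the start, and those of Arntl, Clock, Nr1d2 and Dbp held no match to these letters. A match describes the sequence and is not a measured binding site.

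Levels are given in CPM, taken over all UMIs of a class in a library, so a higher share of a gene and a lower share of other RNA cannot be told apart. As UMIs were taken at the 3′ end and not scaled by length, they are compared within a gene and not between genes. Class differences were fitted with edgeR's quasi-likelihood test on the 8 sums of UMIs per class and library, with the library as a block, and p-values were adjusted by the Benjamini-Hochberg method over 10806 genes. The standard error (SE) given with a log2 ratio was derived from the test. It is the absolute log2 ratio divided by the square root of edgeR's F statistic. The p-values rest on the spread between just 2 libraries, which also differ in light, and every gate drew on the same 2 preparations.

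**Figure D1:**
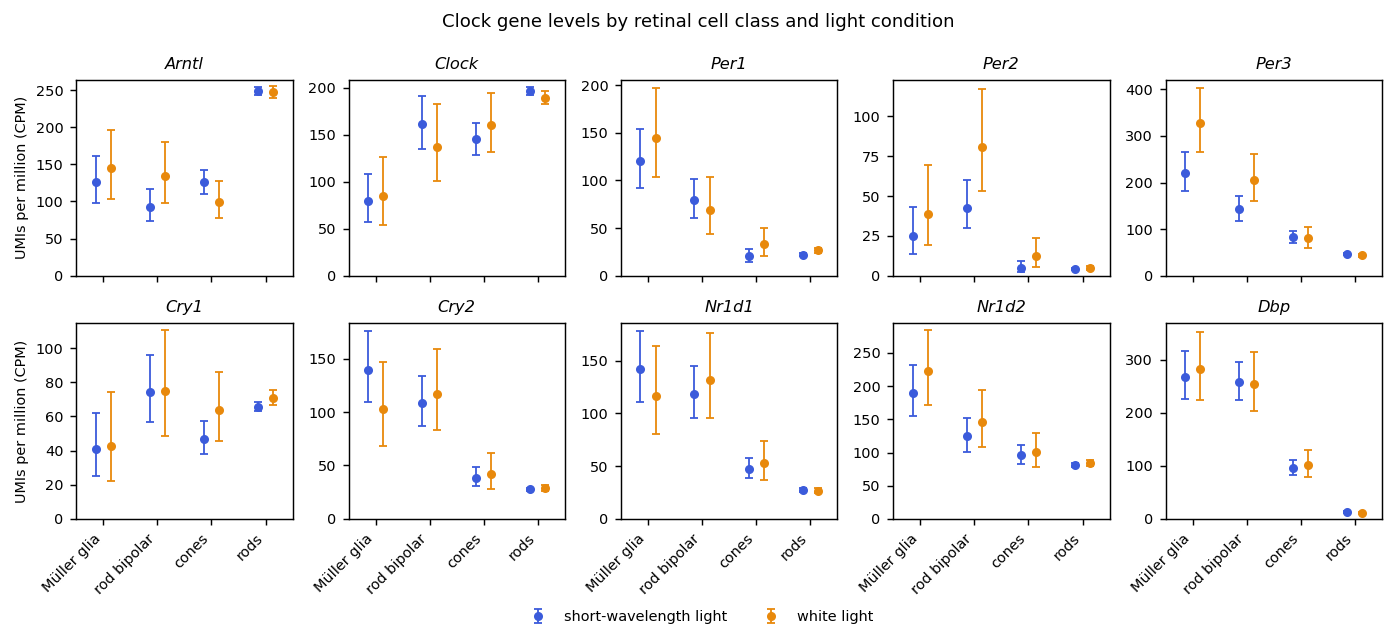
Levels of the 10 clock genes (CPM, linear axes from 0) in Müller glia, rod bipolar cells, cones and rods, with 1 point per library and 95% Poisson counting intervals. Under short-wavelength light Dbp stands at 268 CPM in Müller glia and 13.0 CPM in rods, while Arntl is highest in rods at 248.8 CPM, and the white-light points show the same order.

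The activator Arntl was lower in every other class than in rods. Under short-wavelength light it stood at 126 CPM in Müller glia, 93.2 CPM in rod bipolar cells, 126 CPM in cones and 248.8 CPM in rods. In the white-light library Arntl stood at 145 CPM in Müller glia, 135 CPM in rod bipolar cells, 99.99 CPM in cones and 247 CPM in rods. Rods were the highest class in both libraries and did not overlap the others. The log2 ratio to rods was -0.74 ± 0.15 in Müller glia (± SE; edgeR adjusted p = 3.64e-06), -1.05 ± 0.14 in rod bipolar cells (adjusted p = 4.37e-13) and -0.98 ± 0.10 in cones (adjusted p = 3.7e-22). Among the 3 lower classes, the edgeR ratio of rod bipolar cells to cones was -0.07 ± 0.18 (adjusted p = 0.815) and that of Müller glia to rod bipolar cells 0.31 ± 0.22 (adjusted p = 0.254), so their order was not resolved.

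Clock, the partner of BMAL1, differed most in the glia. Under short-wavelength light it stood at 79.6 CPM in Müller glia, 161 CPM in rod bipolar cells, 145 CPM in cones and 197 CPM in rods. In the white-light library Clock stood at 84.9 CPM in Müller glia, 137 CPM in rod bipolar cells, 161 CPM in cones and 189.6 CPM in rods. Müller glia were the lowest class in both libraries. Against rods, edgeR gave a log2 ratio of -1.09 ± 0.18 in Müller glia (adjusted p = 6.4e-09) and -0.30 ± 0.10 in cones (adjusted p = 0.00484), while rod bipolar cells at -0.16 ± 0.13 did not pass (adjusted p = 0.315). The cone call is not firm: with DESeq2 in place of edgeR its adjusted p was 0.285, with cells thinned to 1000 UMIs the edgeR adjusted p was 0.23, and against rods of the lowest quintile by Malat1 share the ratio was 0.04.

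The Period genes, whose products carry the negative feedback, ran the other way. Per3 stood at 221 CPM in Müller glia, 142 CPM in rod bipolar cells, 83.1 CPM in cones and 47.2 CPM in rods under short-wavelength light. For white light the Per3 level was 329 CPM in Müller glia, 206 CPM in rod bipolar cells, 80.3 CPM in cones and 43.5 CPM in rods. Per3 thus kept the same order of classes in both libraries. Its log2 ratio to rods was 2.68 ± 0.15 in Müller glia (edgeR adjusted p = 4.28e-70), 2.02 ± 0.15 in rod bipolar cells (adjusted p = 5.69e-39) and 0.94 ± 0.13 in cones (adjusted p = 1.74e-11). Per3 lies inside an annotated span of Camta1 on the same strand, at chr4:150917322-151861876, and molecules from shared sequence could have been left out or counted to either gene. Camta1 did not run with Per3: it stood at 229 CPM in Müller glia and 506 CPM in rods under short-wavelength light, and at 251 CPM in Müller glia and 517 CPM in rods under white light.

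Per1, the Period gene that also answers directly to light and stress signals, was high in glia and bipolar cells but not in cones. Under short-wavelength light it stood at 120.3 CPM in Müller glia, 79.3 CPM in rod bipolar cells, 20.5 CPM in cones and 22.1 CPM in rods. For white light the Per1 level was 145 CPM in Müller glia, 68.7 CPM in rod bipolar cells, 33.3 CPM in cones and 26.6 CPM in rods. The levels of cones and rods lay close together in both libraries. Per1 was 6.09-fold higher in Müller glia than in rods (edgeR adjusted p = 9.56e-36) and 3.66-fold higher in rod bipolar cells (adjusted p = 8.2e-18), and the log2 ratio of 0.12 ± 0.21 in cones did not pass (adjusted p = 0.675). Fos, an immediate early gene that rises in dissociated tissue, stood at 629 CPM in Müller glia, 86.9 CPM in rod bipolar cells, 21.5 CPM in cones and 33.6 CPM in rods under short-wavelength light. In the white-light library Fos stood at 371 CPM in Müller glia, 56.8 CPM in rod bipolar cells, 39.4 CPM in cones and 68.1 CPM in rods. The tissue was digested at 37 °C for about 30 minutes per the labels' protocols, and the part of that step in the Per1 levels was not tested.

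Per2 was sparse. It was counted with 13 UMIs in Müller glia, 34 in rod bipolar cells, 10 in cones and 146 in rods under short-wavelength light. The white-light library gave Per2 11 UMIs in Müller glia, 27 in rod bipolar cells, 8 in cones and 74 in rods. As CPM, Per2 was highest in rod bipolar cells, with 42.8 CPM under short-wavelength and 80.7 CPM under white light, and in rods it stood at 4.14 CPM under short-wavelength and 4.87 CPM under white light. The ratio to rods was 7.64-fold in Müller glia (edgeR adjusted p = 8.08e-10) and 14.3-fold in rod bipolar cells (adjusted p = 1.3e-29), and cones at a log2 ratio of 0.78 ± 0.45 did not pass (adjusted p = 0.141).

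The 2 Cryptochrome genes, which encode the strongest repressors of BMAL1 and CLOCK, parted from each other. Cry2 stood at 139.7 CPM in Müller glia, 108 CPM in rod bipolar cells, 38.5 CPM in cones and 27.6 CPM in rods under short-wavelength light. White-light cells had Cry2 at 103 CPM in Müller glia, 117 CPM in rod bipolar cells, 42.4 CPM in cones and 28.7 CPM in rods. It was 5.03-fold higher in Müller glia than in rods (edgeR adjusted p = 7.52e-30), 4.48-fold higher in rod bipolar cells (adjusted p = 3.58e-31) and 1.497-fold higher in cones (adjusted p = 0.00304). The cone call on Cry2 was not kept with cells thinned to 1000 UMIs, where the log2 ratio was 0.83 (edgeR adjusted p = 0.0784). Cry1 did not share that gradient. It stood at 40.7 CPM in Müller glia, 74.3 CPM in rod bipolar cells, 47.0 CPM in cones and 65.7 CPM in rods under short-wavelength light, and at 42.4 CPM in Müller glia, 74.7 CPM in rod bipolar cells, 63.6 CPM in cones and 70.9 CPM in rods under white light. None of its ratios to rods passed in edgeR: Müller glia had a log2 ratio of -0.54 ± 0.26 (adjusted p = 0.0628), rod bipolar cells 0.33 ± 0.19 (adjusted p = 0.129) and cones -0.29 ± 0.15 (adjusted p = 0.087). The Müller and cone ratios were near the threshold and passed it under several of the alternatives, while rod bipolar cells were above cones in Cry1 by 0.62 ± 0.22 (adjusted p = 0.0166). In UMIs, the number of Cry2 per Cry1 was 3.43 (2.08 to 5.87) in Müller glia and 0.420 (0.389 to 0.452) in rods under short-wavelength light, and 2.42 (1.196 to 5.20) in Müller glia and 0.404 (0.361 to 0.452) in rods under white light.

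The REV-ERB receptors, nuclear receptors that repress Arntl, were both higher outside rods. Nr1d1, encoding REV-ERBα, stood at 142 CPM in Müller glia, 118 CPM in rod bipolar cells, 47.5 CPM in cones and 27.1 CPM in rods under short-wavelength light. White-light cells had Nr1d1 at 117 CPM in Müller glia, 132 CPM in rod bipolar cells, 53.0 CPM in cones and 26.7 CPM in rods. The edgeR ratios to rods were 5.50-fold in Müller glia (adjusted p = 5.13e-34), 5.15-fold in rod bipolar cells (adjusted p = 3.18e-39) and 1.93-fold in cones (adjusted p = 9.39e-08). The cone call on Nr1d1 was not kept after thinning, at a log2 ratio of 0.69 (edgeR adjusted p = 0.156). Nr1d2, encoding REV-ERBβ, had smaller ratios to rods. It stood at 190.2 CPM in Müller glia, 125 CPM in rod bipolar cells, 96.6 CPM in cones and 81.0 CPM in rods under short-wavelength light, and at 223 CPM in Müller glia, 146 CPM in rod bipolar cells, 102 CPM in cones and 84.7 CPM in rods under white light. Its ratios were 2.75-fold in Müller glia (edgeR adjusted p = 7.69e-22), 1.81-fold in rod bipolar cells (adjusted p = 2.46e-08) and 1.27-fold in cones (adjusted p = 0.0067). The cone call on Nr1d2 was lost when libraries were scaled by total UMIs only (edgeR adjusted p = 0.0555) and after thinning (adjusted p = 0.103).

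Nr1d1 overlaps at its 3′ end with Thra on the opposite strand (chr11:98740638-98769006), and whether counting used the strand is not given in the sources used here. Thra, a thyroid hormone receptor gene, was also higher in glia and bipolar cells: it stood at 157 CPM in Müller glia, 129.7 CPM in rod bipolar cells, 46.0 CPM in cones and 58.7 CPM in rods under short-wavelength light. White-light cells had Thra at 173 CPM in Müller glia, 98.6 CPM in rod bipolar cells, 48.5 CPM in cones and 58.9 CPM in rods. The Nr1d1 counts are uncertain to that extent. Dbp overlaps Sphk2 in the same way, and Sphk2 stood at no more than 21.2 CPM in any class. In rods Sphk2 stood at 7.04 CPM under short-wavelength and 7.82 CPM under white light. Dbp stood there at 13.0 CPM under short-wavelength and 11.5 CPM under white light. The part of Sphk2 in the Dbp counts was not tested. Cry2 overlaps D930015M05Rik at no more than 10.6 CPM, and Arntl overlaps Gm45355 at no more than 0.329 CPM. Clock overlaps Ube2n-ps1 and Gm43658 on the same strand. Neither is in the gene list of the matrices, so their levels are not known.

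Dbp, a transcription factor gene that is a direct output of BMAL1 and CLOCK, showed the widest range of the 10 genes. It stood at 268 CPM in Müller glia, 258 CPM in rod bipolar cells, 96.6 CPM in cones and 13.0 CPM in rods under short-wavelength light. In white light Dbp stood at 283 CPM in Müller glia, 254 CPM in rod bipolar cells, 102 CPM in cones and 11.5 CPM in rods. Rods were far below every other class in both libraries, and cones lay between. The log2 ratio to rods was 4.62 ± 0.17 in Müller glia (edgeR adjusted p = 6.42e-164), 4.54 ± 0.15 in rod bipolar cells (adjusted p = 3.65e-198) and 3.06 ± 0.15 in cones (adjusted p = 1.43e-93). Rod bipolar cells were 2.805-fold above cones (adjusted p = 2.35e-22), and Müller glia differed from rod bipolar cells by 0.08 ± 0.15 on the log2 scale (adjusted p = 0.731).

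The same contrast appeared cell by cell. A Dbp UMI was found in 71.6% of Müller glia (60.5 to 81.1), 76.9% of rod bipolar cells (68.2 to 84.2), 42.8% of cones (37.2 to 48.6) and 3.49% of rods (3.18 to 3.82) under short-wavelength light, with exact Clopper-Pearson intervals. In white light it was found in 84.8% of Müller glia (68.1 to 94.9), 78.0% of rod bipolar cells (62.4 to 89.4), 39.8% of cones (30.0 to 50.2) and 3.69% of rods (3.16 to 4.28). Since rods were shallower, each cell was also thinned to 1000 UMIs. Dbp was then found in 16.5% of Müller glia, 26.5% of rod bipolar cells, 8.50% of cones and 1.32% of rods under short-wavelength light. Under white light the thinned shares were 33.3% of Müller glia, 19.5% of rod bipolar cells, 6.25% of cones and 1.15% of rods. Thinned shares of Arntl ran the other way, with 12.7% of Müller glia, 10.3% of rod bipolar cells, 13.1% of cones and 21.4% of rods under short-wavelength light, and 9.09% of Müller glia, 2.44% of rod bipolar cells, 10.4% of cones and 21.6% of rods under white light. Cells too shallow for thinning were 1 rod and 2 Müller glia under short-wavelength light, and 155 rods and 2 cones under white light.

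**Figure D2:**
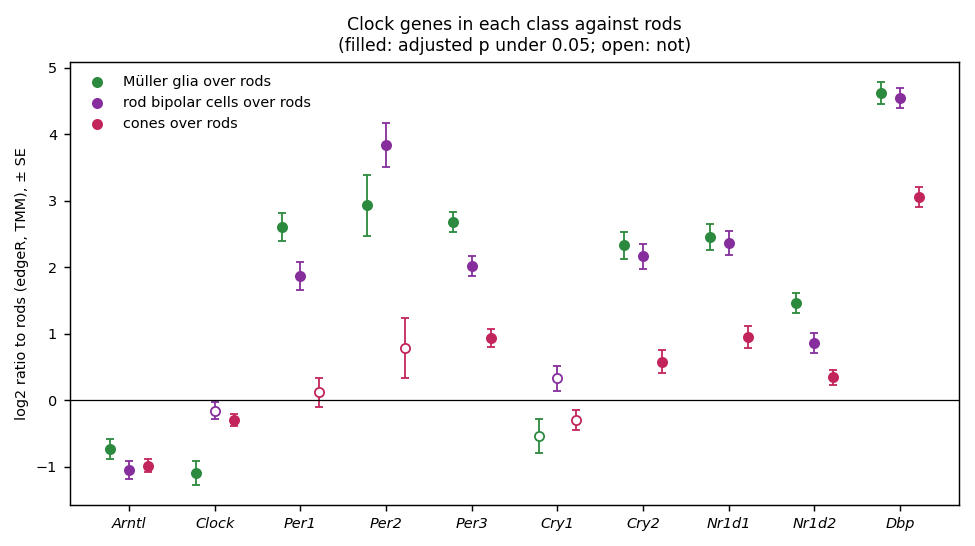
Log2 ratio of each clock gene in Müller glia, rod bipolar cells and cones to rods (edgeR, TMM scaling, ± SE; filled points have an adjusted p under 0.05). Arntl lies below 0 in all 3 classes, Dbp reaches 4.62 and 4.54, and Cry1 has open points only.

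Across the 10 genes, 7 were higher and 2 lower in Müller glia than in rods at an edgeR adjusted p under 0.05, where 29.3% of all genes tested were higher and 23.7% lower. In rod bipolar cells 7 were higher and 1 lower, against 28.7% and 24.2% of all genes. In cones 5 were higher and 2 lower, against 25.7% and 25.3% of all genes. The median log2 ratio of the 10 genes was 2.39 in Müller glia, 1.95 in rod bipolar cells and 0.46 in cones, where the medians over all genes tested were -0.04 in Müller glia, -0.01 in rod bipolar cells and -0.08 in cones. Rod bipolar cells were above cones in 8 of the 10 genes, with 20.9% of all genes tested higher in that contrast, and Arntl and Clock were the members that did not pass. Between Müller glia and rod bipolar cells, Per1, Per3 and Nr1d2 were higher and Clock and Cry1 lower, against 22.9% higher and 20.5% lower over all genes. Scaling by total UMIs alone moved the all-gene medians to -0.20 in Müller glia and -0.19 in rod bipolar cells, and under none of the scalings tried did a member change direction.

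Summed by arm, the activators Arntl and Clock stood at 206 CPM in Müller glia, 254 CPM in rod bipolar cells, 271 CPM in cones and 446 CPM in rods under short-wavelength light. The PER arm stood at 367 CPM in Müller glia, 264 CPM in rod bipolar cells, 109 CPM in cones and 73.5 CPM in rods in that library. Rods thus had the highest activator sum and the lowest PER sum. White light gave the same order at both ends, with activators at 229.8 CPM in Müller glia and 437 CPM in rods, and the PER arm at 513 CPM in Müller glia and 74.96 CPM in rods. The REV-ERB arm stood at 332 CPM in Müller glia and 108 CPM in rods under short-wavelength light, and at 339 CPM in Müller glia and 111 CPM in rods under white light. The CRY arm mixed the gradient of Cry2 with the differing pattern of Cry1. It stood at 180.5 CPM in Müller glia, 183 CPM in rod bipolar cells, 85.6 CPM in cones and 93.2 CPM in rods under short-wavelength light. White light gave 145 CPM in Müller glia, 191 CPM in rod bipolar cells, 106 CPM in cones and 99.6 CPM in rods, so cones and rods changed order.

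The balance of the loop can be read as UMIs of Arntl per UMI of Dbp, of which the change between classes, and not the value, is meaningful. Under short-wavelength light it was 0.471 (0.345 to 0.637) in Müller glia, 0.361 (0.273 to 0.473) in rod bipolar cells, 1.30 (1.07 to 1.58) in cones and 19.2 (17.5 to 21.1) in rods. Under white light it was 0.512 (0.343 to 0.756) in Müller glia, 0.529 (0.360 to 0.769) in rod bipolar cells, 0.985 (0.690 to 1.41) in cones and 21.5 (18.5 to 25.1) in rods. Rods stood apart from all other classes in both libraries, and the intervals of Müller glia and rod bipolar cells overlapped. A clock set to different phases and a clock run at different strength in these classes cannot be told apart from 1 time point.

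Within rods, the activators moved with the share of Malat1, a nuclear RNA often read as a sign of lost cytoplasm. Rods of both libraries were divided into 5 quintiles by that share. Under short-wavelength light Arntl stood at 179 CPM in the lowest and 271 CPM in the highest quintile, and under white light at 207 CPM in the lowest and 277 CPM in the highest. Clock stood at 144 CPM in the lowest and 207 CPM in the highest quintile under short-wavelength light, and at 152 CPM and 203 CPM in those quintiles under white light. Dbp ran the other way, at 18.8 CPM in the lowest and 11.2 CPM in the highest quintile under short-wavelength light, and at 15.8 CPM and 9.44 CPM in those quintiles under white light. For Arntl and for Clock the lowest quintile was below each of the others in both libraries. Malat1 itself stood at 92123 CPM in Müller glia, 38162 CPM in rod bipolar cells, 43578 CPM in cones and 56159 CPM in rods under short-wavelength light. The range of Dbp over the rod quintiles was narrower than its difference between classes. In both libraries the lowest quintile of rods was above the other classes in Arntl and below cones in Clock. The other classes were not divided by Malat1, and the part of its share in the class differences was not tested.

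**Figure D3:**
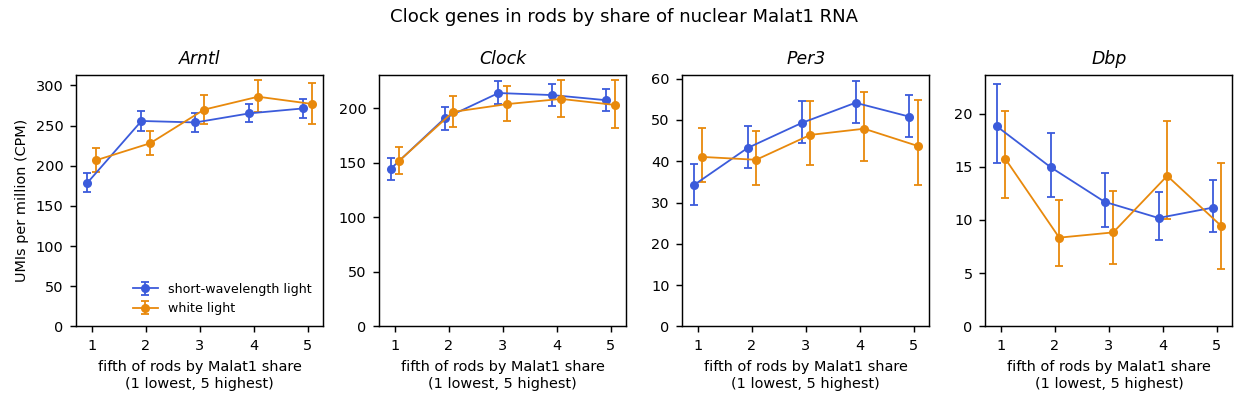
Levels of Arntl, Clock, Per3 and Dbp (CPM, with 95% Poisson counting intervals) in rods of each library, divided into 5 quintiles by the share of Malat1. Arntl runs between 179 and 271 CPM from the lowest to the highest quintile under short-wavelength light, and Dbp stays under 19 CPM in all of them.

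Between the light conditions, the clock genes of rods were close together. The ratio of short-wavelength to white light lay between 0.832 and 1.13 for the 10 genes, and 0 of 10 were past 1.5-fold in rods, where 9.14% of all genes with at least 20 UMIs were. Arntl had a ratio of 1.01 (0.968 to 1.05), Clock 1.04 (0.994 to 1.08) and Dbp 1.13 (0.945 to 1.35). The intervals of 2 genes lay below 1: Per1 at 0.832 (0.737 to 0.941), with 22.1 CPM under short-wavelength and 26.6 CPM under white light, and Cry1 at 0.926 (0.861 to 0.997), with 65.7 CPM under short-wavelength and 70.9 CPM under white light. Among the clock-linked genes listed below, the rod interval excluded 1 for 1 of 9 transcription factor genes and 5 of 8 output genes. It did so for 5 of 15 genes for clock kinases, phosphatases, ubiquitin ligases and related proteins. The share over all genes was not counted, so nothing is read from the number of such members. Fos in rods was lower in the same direction as Per1, at 33.6 CPM under short-wavelength and 68.1 CPM under white light, and its part in the Per1 value was not tested. Haemoglobin markers also differed in rods, at 132 CPM under short-wavelength and 340.4 CPM under white light.

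In the smaller classes the intervals were wide, and 1 gene in each was past 1.5-fold. In Müller glia Per2 had a ratio of 0.649 (0.268 to 1.60) on 13 short-wavelength and 11 white-light UMIs, where 23.5% of all genes were past 1.5-fold. In rod bipolar cells it was again Per2, at 0.530 (0.311 to 0.914), where 20.2% of all genes were. In cones Per1 was past that size at 0.616 (0.358 to 1.09), as 1 of 9 genes with enough UMIs, where 15.9% of all genes were. With 1 member past that size in each of these classes, nothing is read from the members' share. Past 1.2-fold lay 5 of 10 members in Müller glia (55.4% of all genes), 3 of 10 in rod bipolar cells (51% of all genes), 3 of 9 in cones (45.4% of all genes) and 1 of 10 in rods (24.7% of all genes). With at least 50 UMIs over both libraries, 0 of 8 members were past 1.5-fold in Müller glia (11.6% of all genes), 1 of 10 in rod bipolar cells (9.45% of all genes), 1 of 9 in cones (9.42% of all genes) and 0 of 10 in rods (4.28% of all genes).

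The member with an interval below 1 in more than 1 class was Per3, and how many of all genes had this was not counted. Its ratio was 0.673 (0.507 to 0.894) in Müller glia, with 221 CPM under short-wavelength and 329 CPM under white light. In rod bipolar cells it was 0.690 (0.507 to 0.945), with 142 CPM under short-wavelength and 206 CPM under white light. The Müller direction was not kept with cells thinned at random to 1000 UMIs. This left 18 short-wavelength and 5 white-light UMIs of Per3 in Müller glia. Its log2 ratio (of CPM + 5) there turned to 0.57, against -0.56 unthinned, and the cause of the turn was not tested. Rod bipolar cells kept 12 short-wavelength and 11 white-light UMIs, with a log2 ratio of -1.35, against -0.52 unthinned. Cones and rods did not share the low ratio, with unthinned ratios of 1.03 (0.755 to 1.44) in cones and 1.08 (0.991 to 1.19) in rods. Whether the classes differ in their ratio was not tested, as each condition had 1 library. The PER arm as a whole had a ratio of 0.715 (0.573 to 0.894) in Müller glia, 0.743 (0.591 to 0.939) in rod bipolar cells, 0.864 (0.668 to 1.13) in cones and 0.980 (0.914 to 1.05) in rods. The activators had ratios of 0.895 (0.651 to 1.24) in Müller glia, 0.935 (0.727 to 1.21) in rod bipolar cells, 1.04 (0.874 to 1.24) in cones and 1.02 (0.991 to 1.05) in rods. Dbp lay between 0.947 and 1.13 in all 4 classes, each with an interval that held 1. No member had intervals on opposite sides of 1 in 2 classes. The median log2 ratio of the members was -0.14 in Müller glia, -0.12 in rod bipolar cells, -0.12 in cones and -0.02 in rods, with all-gene medians of 0.02 in Müller glia, 0.01 in rod bipolar cells, 0.03 in cones and 0.0021 in rods.

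**Figure D4:**
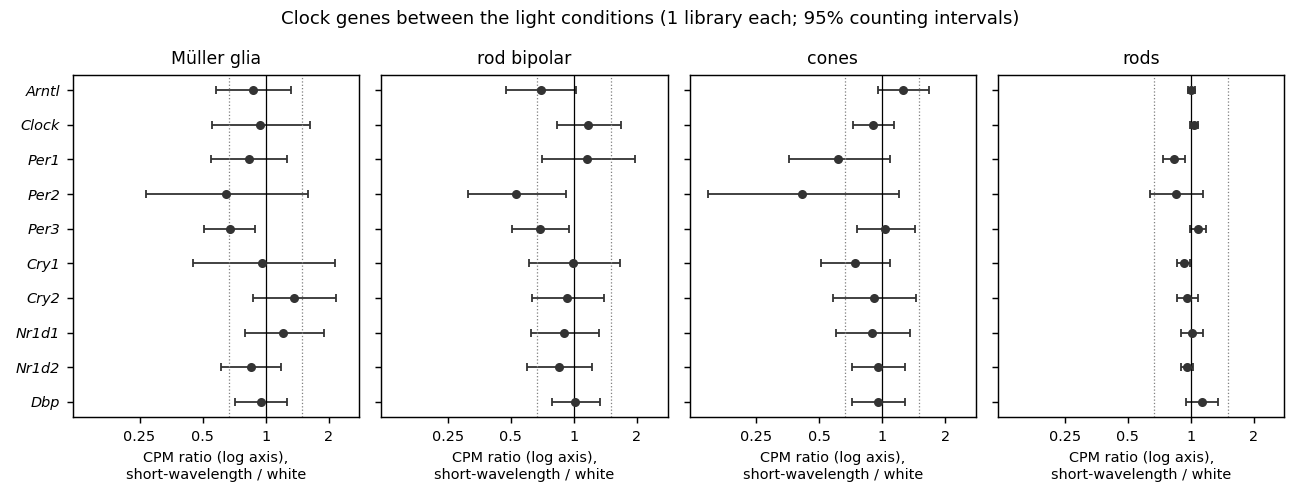
Ratio of short-wavelength to white light (CPM, log axis) for each clock gene in each class, with 95% counting intervals and dotted lines at 1.5-fold in both directions. In rods all 10 points lie between 0.832 and 1.13, and Per3 lies at 0.673 in Müller glia and 0.690 in rod bipolar cells.

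Of 11 other transcription factor genes tied to the clock, 8 had enough counts to be tested. In Müller glia 6 were higher and 1 lower than in rods (edgeR adjusted p under 0.05), in rod bipolar cells 6 were higher, and in cones 3 were higher and 1 lower. Over all genes tested, 29.3% were higher and 23.7% lower in Müller glia, 28.7% higher and 24.2% lower in rod bipolar cells, and 25.7% higher and 25.3% lower in cones. Hlf, a relative of Dbp that binds the same D-box, stood at 407 CPM in Müller glia, 316 CPM in rod bipolar cells, 42.0 CPM in cones and 25.4 CPM in rods under short-wavelength light. Under white light Hlf stood at 477 CPM in Müller glia, 260.1 CPM in rod bipolar cells, 42.4 CPM in cones and 26.04 CPM in rods. Its log2 ratios to rods were 4.24 ± 0.13 in Müller glia, 3.72 ± 0.13 in rod bipolar cells and 0.80 ± 0.17 in cones, near those of Dbp in the first pair of classes and well below it in cones. Tef, the remaining member of that family, was higher than in rods in all 3 classes. Its log2 ratio was 2.02 ± 0.17 in Müller glia, 1.74 ± 0.16 in rod bipolar cells and 1.19 ± 0.13 in cones (edgeR adjusted p = 1.53e-19 in cones).

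The repressors Bhlhe40 and Ciart had few counts in photoreceptors. Bhlhe40 had 26 UMIs in Müller glia, 20 in rod bipolar cells, 0 in cones and 10 in rods under short-wavelength light, and 26 UMIs in Müller glia, 7 in rod bipolar cells, 0 in cones and 5 in rods under white light. In CPM that came to 50.4 in Müller glia and 0.284 in rods under short-wavelength light, with an edgeR log2 ratio of 7.84 ± 0.50 to rods (adjusted p = 1.38e-53). Ciart, a repressor of BMAL1 and CLOCK, stood at 173 CPM in Müller glia, 28.96 CPM in rod bipolar cells, 3 CPM in cones and 1.82 CPM in rods under short-wavelength light. Its log2 ratio to rods was 6.73 ± 0.30 in Müller glia (adjusted p = 3.61e-108) and 4.25 ± 0.44 in rod bipolar cells (adjusted p = 3.02e-21). Rora, which competes with REV-ERB receptors at Arntl, was higher in cones than in rods by 0.65 ± 0.11 (adjusted p = 2.48e-08), at 788 CPM in cones and 516 CPM in rods under short-wavelength light. The Rora log2 ratio to rods was larger in Müller glia, at 2.65 ± 0.11, and in rod bipolar cells, at 1.79 ± 0.11.

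**Figure D5:**
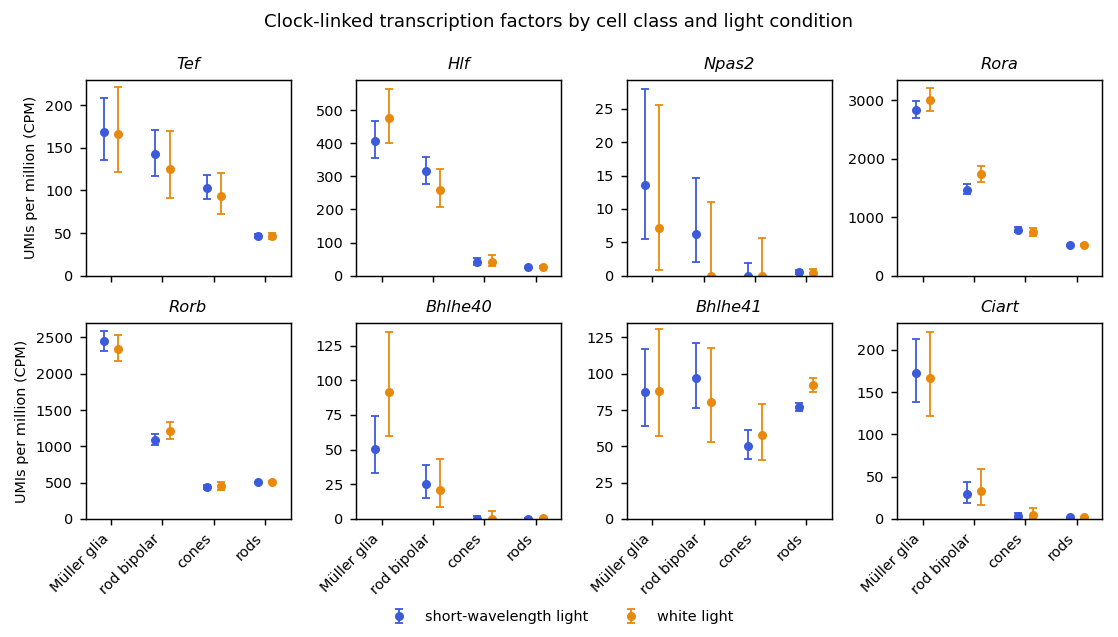
Levels of 8 other clock-linked transcription factors (CPM, linear axes from 0, 95% Poisson counting intervals) in each class and library. Hlf, Rora, Rorb and Ciart are highest in Müller glia, as with Hlf at 407 CPM under short-wavelength and 477 CPM under white light.

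Of 15 listed genes for clock kinases, phosphatases, ubiquitin ligases and related proteins, 13 were tested. In Müller glia 3 were higher and 4 lower than in rods (edgeR adjusted p under 0.05), in rod bipolar cells 5 higher and 2 lower, and in cones 2 higher and 3 lower. The shares of all genes were 29.3% higher and 23.7% lower in Müller glia, 28.7% and 24.2% in rod bipolar cells, and 25.7% and 25.3% in cones, and nothing is read from counts this near to them. Csnk1e, a casein kinase that phosphorylates PER proteins, was higher than in rods in all 3 classes: by 1.30 ± 0.30 in Müller glia, 1.71 ± 0.24 in rod bipolar cells and 2.12 ± 0.15 in cones on the log2 scale. Skp1a, part of the ubiquitin ligases that degrade CRY and PER, was higher by 1.57 ± 0.15 in rod bipolar cells, 0.95 ± 0.13 in cones and 0.91 ± 0.20 in Müller glia. In Müller glia Prkaa2, a catalytic subunit of AMP kinase, was higher by 1.98 ± 0.24 and Btrc, which directs PER to degradation, lower by -1.05 ± 0.16. Btrc was also lower by -0.59 ± 0.13 in rod bipolar cells and by -0.46 ± 0.09 in cones. In cones Prkaa1 was lower by -0.55 ± 0.23 (adjusted p = 0.0355).

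Of 12 listed genes for retinal outputs of the clock, 7 were tested: in Müller glia 2 were higher and 4 lower than in rods (edgeR adjusted p under 0.05), in rod bipolar cells 3 higher and 3 lower, and in cones 1 higher and 4 lower. Against these stood 29.3% higher and 23.7% lower of all genes in Müller glia, 28.7% and 24.2% in rod bipolar cells, and 25.7% and 25.3% in cones, and with 7 genes the counts are given as a description. Drd4, the dopamine receptor of photoreceptors, stood at 15.1 CPM in rod bipolar cells, 93.1 CPM in cones and 199 CPM in rods under short-wavelength light. It was lower than in rods by -3.54 ± 0.24 in rod bipolar cells (adjusted p = 9.14e-47) and by -1.05 ± 0.11 in cones (adjusted p = 1.83e-21). In Müller glia Drd4 was lower by -2.44 ± 0.23. Gnaz, a G protein subunit gene, was lower by -2.99 ± 0.28 in rod bipolar cells, -1.97 ± 0.26 in Müller glia and -1.40 ± 0.15 in cones. Noct, encoding the rhythmic enzyme nocturnin, was higher in cones by 0.67 ± 0.29 (adjusted p = 0.0396) and in rod bipolar cells by 1.98 ± 0.31. Its ratio of -0.55 ± 0.62 in Müller glia did not pass. Drd2, another dopamine receptor gene, had 114 UMIs in rod bipolar cells and 6 in rods under short-wavelength light, and 54 UMIs in rod bipolar cells and 7 in rods under white light. In Müller glia Drd2 was called on 1 UMI under short-wavelength and 2 UMIs under white light, with a CPM ratio to rods of 11.4 (0.248 to 93.9) in the short-wavelength library and of 15.4 (1.56 to 80.7) in the white-light library. Ptgds, which encodes prostaglandin D synthase, was higher by 3.32 ± 0.50 in Müller glia and 2.43 ± 0.54 in rod bipolar cells. Its ratio of 0.48 ± 0.56 in cones did not pass. Pdc, the photoreceptor phosducin, was lower by -2.72 ± 0.13 in Müller glia, -2.92 ± 0.12 in rod bipolar cells and -0.63 ± 0.10 in cones.

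Up to 2 genes of these lists per class were named for the largest light ratio past 1.5-fold. Btrc in Müller glia had a ratio of 0.434 (0.276 to 0.679), and Drd4 there 0.343 (0.139 to 0.804) on 10 short-wavelength and 16 white-light UMIs. Sik1, which encodes a salt-inducible kinase, had in rod bipolar cells 29 UMIs under short-wavelength light, in 25 of 117 cells, and 0 UMIs in 41 cells under white light. That was 36.5 CPM under short-wavelength light, where 3 UMIs would give 8.97 CPM in the white-light class. The interval of this ratio started at 3.11 and had no upper bound. Sik1 did not run that way in rods, where its ratio was 0.637 (0.493 to 0.826). Prkaa2 in rod bipolar cells had a ratio of 1.69 (0.614 to 5.75). Csnk1d had 0.599 (0.408 to 0.891) in cones. In rods Ptgds had 0.546 (0.392 to 0.762), at 2.44 CPM under short-wavelength and 4.47 CPM under white light, and Timeless had 1.62 (0.940 to 2.96) on 64 short-wavelength and 17 white-light UMIs.

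The genes whose levels followed each arm most closely over the 8 sums of class and library were sought among 1965 genes, by Pearson's r of log2(CPM + 5). These sums share 2 libraries and 4 classes, so r describes the class pattern and carries no p. The activator sum was followed most closely by Usp34 (r = 0.990), Usp33 (r = 0.989) and Hook3 (r = 0.984), all highest in rods. The PER sum was followed by Cntn1 (r = 0.983), Mxra7 (r = 0.982) and Ttyh1 (r = 0.982). The REV-ERB sum was followed by Mxra7 (r = 0.995), Rora (r = 0.990) and Cntn1 (r = 0.990), so Mxra7 and Cntn1 were nearest to both of these arms. The CRY sum was followed by Mprip (r = 0.970), Morf4l1 (r = 0.970) and Pde10a (r = 0.964). Dbp was followed by Fam171b (r = 0.996), Zfp704 (r = 0.995) and Itm2b (r = 0.990), each lowest in rods and highest in Müller glia.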

How the data were processed

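Retinas of 1 short-wavelength and 1 white-light library were profiled by droplet sequencing (10x Genomics; the labels' protocols give the 3′ kit as v3.1 or v4). The authors deposited UMI counts per gene and barcode. The aligner was Cell Ranger, version 9.0.0 per the file headers, and the build mm10 per the submitters' processing notes, which also name Seurat and edgeR. Use of introns and strand is not given in the sources used here.

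Barcodes were required to show 300 genes or more, with mitochondrial UMIs at 20% or less (kept were 16095 of 16106 short-wavelength, 5695 of 5707 white-light). Scrublet (scanpy 1.11.5) scored doublets. Its automatic threshold marked 0.00621% of barcodes under short-wavelength and 0.0176% under white light. In its place the top scores of each library were discarded, at a rate of 0.8% for every 1000 barcodes (2072 short-wavelength and 259 white-light barcodes). Cells were gated on marker UMIs: cones with at least 20, rod bipolar cells, Müller glia and rods with at least 15 UMIs of their panel, at least 4 markers present (5 for rods), for rod bipolar cells also at least 2 UMIs of Prkca and 2 of Sebox and Car8, and for non-rod gates rod RNA under 0.5 of the rod median. Cells past more than 1 gate (1 in each library) were left out. Gate thresholds were set after seeing the marker panels.

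UMIs were summed per class and library (282805 to 35241884 per sum). Classes were compared with edgeR 4.0.16 (R 4.3.3), TMM scaling and filterByExpr, with the library as a block, and light ratios carry an exact binomial interval, conditional on the total of both counts. In counts simulated for Müller glia against rods (8807 genes tested), 95 of 100 genes raised 4-fold, 61 of 100 lowered to 0.25-fold and 11 unchanged genes were called. The members, lists and rules were chosen with earlier results of these data known. Named were all 10 members, the 3 list genes with the largest called class difference per list and class, the 2 with the largest light ratio past 1.5-fold per class, and 3 nearest genes per arm. Of the list genes that this rule names, 1 is not reported here. Annotation was GENCODE M21. Alternatives covered doublets, cell filter, gate, depth, scaling, DESeq2 1.42.0, minimum counts and summary over cells. Chosen after seeing the data were no limit on rod RNA, rods with at least 4000 UMIs, and rods of the lowest or highest Malat1 quintile.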

Additional observations from a re-analysis of the deposited data

How the results depend on the processing

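Of 444 class log2 ratios recomputed under an alternative, 415 kept direction and side of the threshold, 18 became called, 7 lost the call and 4 changed direction. The changes of direction were Clock in cones (0.044) and rod bipolar cells (0.16) against rods of the lowest Malat1 quintile, and Per1 in cones with cells thinned to 1000 UMIs (-0.16) and without the white-light library (-0.11, with a highest value of 0.33 without the other). Calls were lost in cones only; after thinning the log2 ratios there were -0.31 for Clock (edgeR adjusted p = 0.23), 0.83 for Cry2 (0.0784), 0.69 for Nr1d1 (0.156) and 0.48 for Nr1d2 (0.103), against -0.30, 0.58, 0.95 and 0.34 unthinned. Calls were gained for Cry1 in cones and Müller glia and for Clock in rod bipolar cells. The count of genes higher in cones was 2 after thinning. The count lower in cones was 1 with DESeq2, after thinning and against the lowest Malat1 quintile. The count lower in rod bipolar cells was 2 with total UMIs only, with no filter on low counts, with rods of at least 4000 UMIs and against the highest Malat1 quintile. Without the replicate block the counts were 7 higher and 2 lower in Müller glia, 7 and 1 in rod bipolar cells and 5 and 2 in cones, so no count changed; the libraries pair the classes because each library is 1 preparation. Per2 and Cry1 had too few counts to be fitted after thinning.

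Thinning left few UMIs outside rods and turned the direction of 15 of 40 light log2 ratios (of CPM + 5). In Müller glia these were Per2 (0.95 after thinning), Per3 (0.57), Arntl (0.46), Clock (0.95) and Cry2 (-0.25). In rod bipolar cells they were Arntl (1.87), Nr1d1 (0.94), Cry1 (0.21) and Per1 (-0.091), in cones Per2 (0.73), Nr1d1 (0.66), Nr1d2 (0.51), Dbp (0.47) and Cry2 (0.30), and in rods Arntl (-0.034). As a mean over cells, Per2 in Müller glia turned to 0.17. The count past the fold with 1.2-fold in place of 1.5-fold was 1 in rods, 3 in cones, 3 in rod bipolar cells and 5 in Müller glia. In cones it was 2 with at least 1 UMI in each library and 0 after thinning, and in rod bipolar cells 5 after thinning. In Müller glia it was 0 with at least 50 UMIs and 2 with doublets kept, after thinning, and with TMM or median-of-ratios scaling. Arm sums on the log2 scale moved after thinning to -0.55 for activators in cones, -1.31 in rod bipolar cells and -1.54 in Müller glia, to 1.11 for CRY and 1.58 for REV-ERB in rod bipolar cells, to 1.66 for REV-ERB in Müller glia and to 2.58 for DBP in cones. With doublets kept, activators in cones were at -0.71 and REV-ERB in Müller glia at 1.60, and with a stricter gate REV-ERB in Müller glia was at 1.63. The cause of these moves was not tested. Depth limits Per2 most, with 8 to 34 UMIs in each class other than rods.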

Other observations

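Cells outside the 4 classes gave few counts, and their values are listed without comparison. Bipolar cells that passed the bipolar markers but not the rod bipolar gate, 37 under short-wavelength and 9 under white light, had Dbp at 243 CPM under short-wavelength and 142 CPM under white light. Their Cry2 stood at 221 CPM under short-wavelength and 170.3 CPM under white light, and their Arntl at 101.1 CPM under short-wavelength and 71.0 CPM under white light.

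Microglia, 42 cells under short-wavelength and 17 under white light, had 2 Dbp UMIs under short-wavelength and 1 under white light, or 6.79 and 6.97 CPM. Nr1d1 had 4 UMIs under short-wavelength and 1 under white light there. Per1 stood at 143 CPM under short-wavelength and 125 CPM under white light, on 42 and 18 UMIs, and Arntl at 40.8 CPM under short-wavelength and 105 CPM under white light, on 12 and 15 UMIs.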
